A study of Homo sapiens with 18 samples.

Results

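Cells of BxPC-3, an established line from a human pancreatic adenocarcinoma, were profiled by mRNA sequencing 1 h after treatment with HGF (hepatocyte growth factor, 80 ng/ml) or MSP (macrophage-stimulating protein, 100 ng/ml). The comparison described here sets the 3 HGF libraries at 1 h directly against the 3 MSP libraries at 1 h, 6 of the 18 libraries of the series, which were chosen by their column titles. The other libraries were cells given phosphate-buffered saline as the vehicle at 1 h (3 libraries) and all 3 treatments at 4 h. All cells came from the same line, grown in RPMI with fetal bovine serum, and each ligand was given at a single dose, so ligand and dose cannot be told apart. The labels call the libraries triplicates without saying whether they were separate cultures, and p-values therefore reflect only how far these libraries spread, which may be technical.

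HGF and MSP are related plasminogen-like proteins that are secreted as inactive single chains and cleaved by serine proteases. HGF binds the receptor tyrosine kinase MET, and MSP binds the related receptor RON, which is encoded by MST1R. Both receptors signal through the RAS-ERK and PI3K-AKT cascades. ERK activity is known to switch on immediate-early genes without new protein synthesis, through serum response factor and its ETS-family partners, while AKT holds FOXO transcription factors out of the nucleus.

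Total counts were 31896512 to 46810947 per HGF library and 37953284 to 48477215 per MSP library, and 16794 genes passed the low-count filter. Replicates differed by more than counting noise, with a chi-square per degree of freedom of 4.23 to 5.77 between HGF libraries and 7.23 to 20.3 between MSP libraries, of which replicates 2 and 3 differed most. Epithelial identity was checked with 9 ductal markers, all of which were detected in every library (KRT19, for example, at 79046 to 111463 counts at 1 h). Of 32 markers of fibroblasts, leukocytes, endothelium, acinar and endocrine cells 12 passed the filter, and their summed level was 15.1 to 18.5 CPM after HGF and 14.9 to 16.8 after MSP for fibroblasts, 10.1 to 11.6 and 10.9 to 11.8 for leukocytes and endothelium, and 0.326 to 0.732 and 0.293 to 0.455 for acinar and endocrine cells. At 1 h the endothelial genes VWF, CDH5 and PECAM1 had 156 to 276, 45 to 74 and 39 to 66 counts per library. The fibroblast gene COL1A1 had 326 to 512 and the acinar gene PRSS1 13 to 27. The endothelial receptor KDR, the acinar enzymes CPA1 and PNLIP and the hormones GCG and SST had 0 counts at 1 h. SMAD4 and CDKN2A, tumour suppressor genes known to be deleted in this line, also had 0 counts, but ASNS and IRF9 did too, so a 0 can come from how reads were assigned.

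HGF and MSP differed at 2979 of 16794 genes (17.7%) past an adjusted p of 0.05, with 1911 higher after HGF (11.4%) and 1068 lower (6.36%). Differences of at least 2-fold were seen for 287 of the higher genes (1.71%) and 141 of the lower genes (0.84%). The median size of a difference was 0.36 on the log2 scale among higher genes and 0.42 among lower genes, against 0.13 for all genes tested. In 2828 of the 2979 called genes (94.9%) the 3 libraries of one ligand lay beyond all 3 of the other, which was true of 28.8% of all genes tested, called genes included. The calls were made with these same libraries, so this separation adds no support of its own. Without MSP replicate 2 the number of calls was 3103, and without MSP replicate 3 it was 2810. Levels are CPM scaled by TMM factors, fold changes are log2 ratios of HGF to MSP with their standard error (SE), and p-values are from edgeR's quasi-likelihood test, adjusted by the Benjamini-Hochberg method. Scaled by library totals alone, the median log2 fold change over all tested genes moved from -0.002 to -0.096 and the split of calls turned to 1296 higher and 3112 lower, 29.4% higher against 64.2% with TMM factors. Counts of list members under library totals are given below where they differ. All list counts with TMM factors are to be read against the 11.4% higher and 6.36% lower over all genes.

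**Figure D1:**
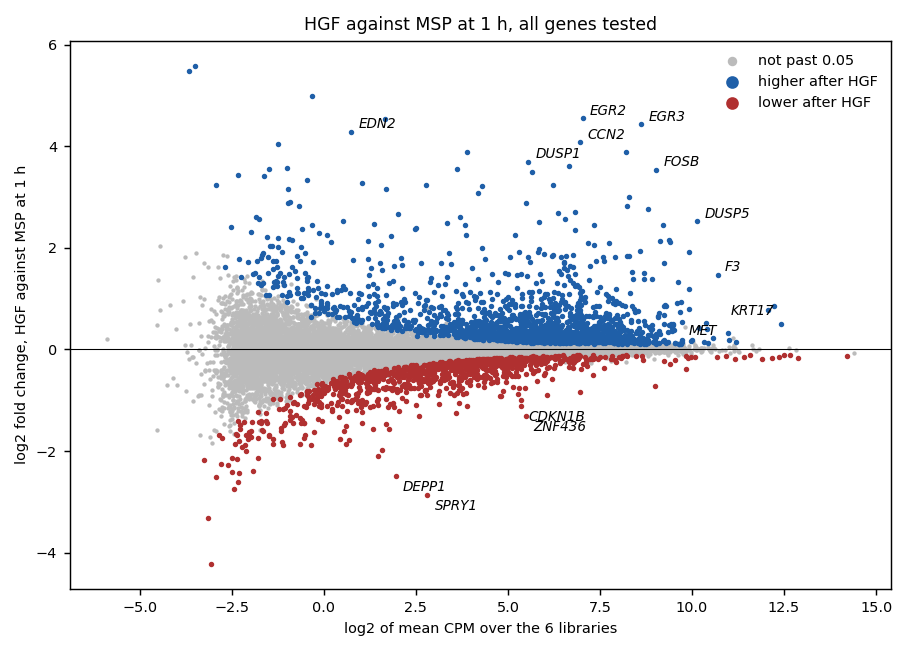
Log2 fold change of HGF against MSP at 1 h (vertical axis) against the log2 mean CPM of the 6 libraries (horizontal axis), 1 point per gene tested, with blue for genes higher and red for genes lower past an adjusted p of 0.05. EGR3 at 4.43 and FOSB at 3.53 stand far above 0, SPRY1 at -2.87 far below it, and MET lies at 0.07.

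The receptors themselves did not pass the test. MET stood at 840, 856 and 859 CPM in the HGF libraries and at 803, 844 and 792 CPM in the MSP libraries (log2 fold change 0.07, 95% interval -0.01 to 0.15, edgeR adjusted p = 0.297). MST1R stood at 71.2, 63.4 and 64.0 CPM after HGF and 62.1, 57.0 and 68.4 CPM after MSP (0.08, interval -0.05 to 0.21, edgeR adjusted p = 0.462). The ranges of the 2 ligand groups overlapped for both genes. HGF had 0 counts in all 6 libraries, which allows up to 0.0941 CPM in the smallest of them for counting error only. MST1, the gene of MSP, had 20 to 60 counts per library and a wide interval (-0.79 to 0.65). Among 12 tested genes for receptors, ligands, activating proteases and their inhibitors and adaptors, including ST14, SPINT1, SPINT2, GAB1 and GRB2, 1 was higher and none lower after HGF, or 1 and 3 with library totals. With TMM factors 8.33% of the list was higher, against 11.4% of all genes. The higher gene was CBL, a ubiquitin ligase that directs activated receptor kinases to degradation, at 81.9, 82.4 and 87.9 CPM after HGF against 66.6, 69.6 and 69.3 after MSP (0.30, SE 0.04, edgeR adjusted p = 2.45e-06).

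Among the largest differences were the EGR factors, transcription factors of the immediate-early class. EGR2, a zinc finger factor, stood at 239, 262 and 250 CPM after HGF and at 9.50, 11.8 and 10.8 CPM after MSP, against 3.60, 4.07 and 3.67 CPM in vehicle. The 3 groups did not overlap, and the HGF level was 23.5-fold the MSP level (log2 fold change 4.55, SE 0.07, edgeR adjusted p = 1e-29). EGR3 showed the same order, with 734, 755 and 758 CPM after HGF, 32.6, 38.8 and 33.0 CPM after MSP and 10.5, 12.6 and 11.4 CPM in vehicle (4.43, SE 0.06, edgeR adjusted p = 5.68e-30). EGR1 stood at 972, 1028 and 995 CPM after HGF against 169, 196 and 182 after MSP (2.45), and EGR4 at 35.8, 29.1 and 32.0 CPM against 4.17, 3.31 and 3.99 (3.07). All 6 tested EGR and NAB genes were higher after HGF, including the corepressors NAB1 (0.46) and NAB2 (0.68), which bind EGR proteins.

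Of 10 AP-1 subunits tested 9 were higher after HGF and none lower, against 11.4% and 6.36% of all genes. FOSB stood at 970, 972 and 954 CPM after HGF and 82.0, 84.0 and 84.7 CPM after MSP (log2 fold change 3.53, SE 0.05, edgeR adjusted p = 6.55e-30), and the vehicle libraries at 38.5 to 45.2 CPM. JUNB was 1068, 1127 and 1087 CPM against 249.2, 255.4 and 257.5 (2.11), and JUN 467, 472 and 478 CPM against 131, 138 and 129 (1.83). FOSL1 differed by 2.76 and FOS by 2.71 on the log2 scale. The member that did not pass, JDP2, a repressor of AP-1, stood at 0.002.

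NR4A1, an orphan nuclear receptor, stood at 603, 523 and 518 CPM after HGF and 37.7, 35.7 and 38.4 CPM after MSP (log2 fold change 3.88, SE 0.07, edgeR adjusted p = 6.45e-22). Its relative NR4A3 stood at 22.4, 23.8 and 21.8 CPM against 2.01, 1.92 and 1.84 (3.55). RASD1, a small RAS-related G protein, was 93.3, 92.7 and 91.7 CPM after HGF against 8.19, 8.06 and 8.57 after MSP (3.48). In the wider list of NR4A, IER and other immediate-early genes 24 of 25 were higher after HGF (22 with library totals) and none lower, with a median log2 fold change of 1.38 against -0.002 over all genes. Among them were TRIB1, a pseudokinase (2.83), RHOB, a small GTPase (2.36), and IER3 (2.09). SIK1, the member that did not pass, was below 0.42 CPM in every library of both ligands.

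**Figure D2:**
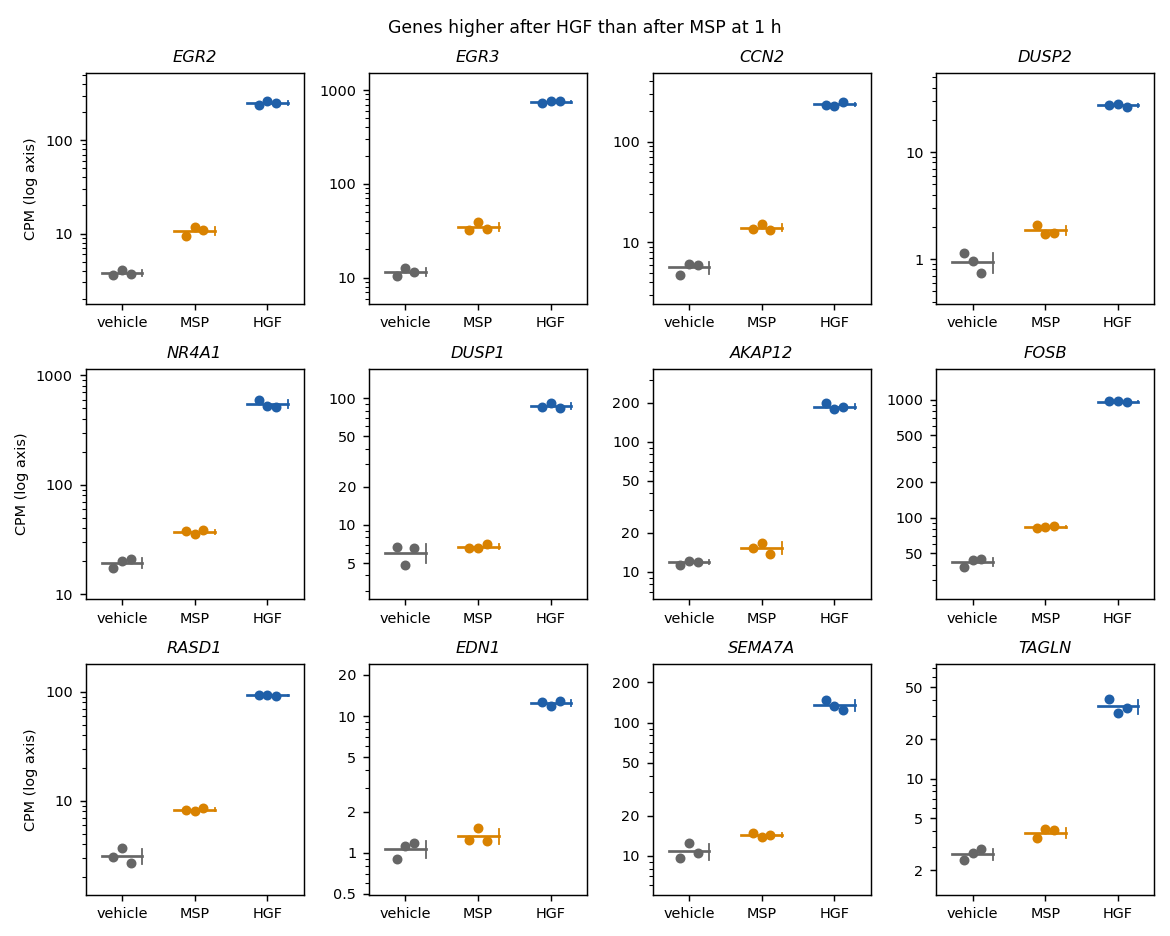
CPM on log axes of 12 genes in each library at 1 h (points) for vehicle, MSP and HGF, with a line at the mean and a bar for the SD (n = 3). Every HGF library lies above every MSP library in all 12 panels because the genes were chosen by that rule. The MSP libraries lie above every vehicle library except for DUSP1, where they overlap.

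Further genes with the largest differences code for secreted or cytoskeletal proteins. CCN2, a matricellular protein and a known target of YAP and TEAD factors, stood at 234, 227 and 246 CPM after HGF and 13.6, 15.2 and 13.2 CPM after MSP (log2 fold change 4.08, SE 0.09, edgeR adjusted p = 1.52e-19). The endothelin genes EDN1 and EDN2, which code for vasoactive peptides, differed by 3.24 (SE 0.14) and 4.28 (SE 0.34). EDN2 rested on 21 counts over the 3 MSP libraries. AKAP12, a scaffold of protein kinases A and C, was 197, 179 and 184 CPM against 15.3, 16.8 and 13.7 (3.61), SEMA7A, a membrane-anchored semaphorin, 149, 134 and 124 CPM against 14.9, 13.9 and 14.3 (3.24), and TAGLN, an actin-binding protein, 40.5, 31.8 and 34.7 CPM against 3.50, 4.09 and 4.02 (3.21). SPRR2C, an annotated pseudogene of a repeated family, stood at 3.28 and is uncertain. The next gene after these 15 largest rises was IL11 at 3.15.

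Promoter windows of the leading genes are shown because these genes moved together. They run from 250 bases before to 50 bases after the RefSeq start (GRCh38.p14), 5′ to 3′ on the gene's strand, for EGR2, EDN2, CCN2 and DUSP2, and for DUSP1 and AKAP12, which were added after the search because they held a match. Among the 15 largest rises 12 had an entry in the promoter table and were searched. EGR3, SPRR2C and TAGLN were not searched. Capitals mark matches, on either strand, to the CArG box bound by serum response factor, TGACGTCA (cyclic AMP response element), TGANTCA (AP-1), GCGNGGGCG (EGR), CCGGAAGT (ETS) or GGAATG (TEAD, added after the CCN2 window was seen).
EGR2 promoter, chr10:62819118-62819417, minus strand: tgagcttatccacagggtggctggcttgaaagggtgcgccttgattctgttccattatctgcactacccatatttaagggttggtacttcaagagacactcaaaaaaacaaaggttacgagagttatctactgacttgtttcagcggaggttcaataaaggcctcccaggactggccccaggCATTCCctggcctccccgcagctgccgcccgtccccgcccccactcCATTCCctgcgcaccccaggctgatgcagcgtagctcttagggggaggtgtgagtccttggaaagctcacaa
EDN2 promoter, chr1:41484634-41484933, minus strand: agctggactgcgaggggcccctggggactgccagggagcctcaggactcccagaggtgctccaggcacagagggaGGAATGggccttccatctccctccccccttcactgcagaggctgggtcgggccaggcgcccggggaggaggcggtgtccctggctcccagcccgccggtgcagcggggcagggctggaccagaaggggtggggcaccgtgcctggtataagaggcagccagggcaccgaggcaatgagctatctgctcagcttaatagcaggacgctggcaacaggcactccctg
CCN2 promoter, chr6:131951323-131951622, minus strand: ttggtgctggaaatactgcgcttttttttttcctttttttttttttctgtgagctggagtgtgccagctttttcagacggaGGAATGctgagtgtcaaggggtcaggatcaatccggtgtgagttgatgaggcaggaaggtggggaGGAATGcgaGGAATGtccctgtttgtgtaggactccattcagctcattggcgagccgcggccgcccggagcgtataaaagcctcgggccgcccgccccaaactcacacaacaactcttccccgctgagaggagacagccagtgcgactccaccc
DUSP2 promoter, chr2:96145391-96145690, minus strand: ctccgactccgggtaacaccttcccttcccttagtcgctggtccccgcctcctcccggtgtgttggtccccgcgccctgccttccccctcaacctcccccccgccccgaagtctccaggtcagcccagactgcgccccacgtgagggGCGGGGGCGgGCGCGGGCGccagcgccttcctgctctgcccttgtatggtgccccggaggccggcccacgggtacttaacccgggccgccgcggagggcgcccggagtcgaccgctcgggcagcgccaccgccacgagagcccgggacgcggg
DUSP1 promoter, chr5:172771146-172771445, minus strand: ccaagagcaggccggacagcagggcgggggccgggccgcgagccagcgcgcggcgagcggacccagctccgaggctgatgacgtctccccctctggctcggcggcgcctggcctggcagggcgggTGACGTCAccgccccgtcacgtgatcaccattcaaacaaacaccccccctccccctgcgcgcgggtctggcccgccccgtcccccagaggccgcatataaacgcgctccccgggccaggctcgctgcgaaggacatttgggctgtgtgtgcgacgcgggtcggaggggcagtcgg
AKAP12 promoter, chr6:151239717-151240016, plus strand: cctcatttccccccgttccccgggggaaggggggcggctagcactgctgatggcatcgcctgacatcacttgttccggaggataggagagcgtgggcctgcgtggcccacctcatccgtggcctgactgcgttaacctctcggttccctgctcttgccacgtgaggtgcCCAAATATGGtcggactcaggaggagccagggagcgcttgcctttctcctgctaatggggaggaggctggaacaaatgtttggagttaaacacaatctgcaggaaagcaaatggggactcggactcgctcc
CCN2 held GGAATG at 169, 104 and 95 bases before the start, EGR2 held it in the other orientation at 68 and 22 bases, and EDN2 at 175. DUSP2 held GCGNGGGCG in 2 neighbouring copies, the nearer 93 bases before the start, DUSP1 TGACGTCA at 125 and AKAP12 a CArG box at 81. NR4A3 also held GGAATG, in 1 place, and its window is not shown. Of the 12 windows searched 5, those of NR4A1, FOSB, RASD1, EDN1 and SEMA7A, held no match to any of the 6 motifs. Among 11475 promoters matched to tested genes GGAATG was present in 11.2%, GCGNGGGCG in 14.99%, CCGGAAGT in 8.15%, TGANTCA in 5.19%, TGACGTCA in 3.25% and a CArG box in 1.05%. The share of these promoters with a match to any of the 6 motifs was not counted. The number of windows with a match therefore cannot be called high or low. Promoters were matched for 68.3% of tested genes, too few to compare shares between sets of genes. A match is a description of these letters, and no binding was measured.

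MAP kinase phosphatases, which remove the activating phosphates from ERK, JNK and p38, were mostly higher after HGF: 8 of 11 higher and 1 lower (8 and 2 with library totals). DUSP1 stood at 84.7, 92.2 and 83.2 CPM after HGF and 6.53, 6.60 and 7.07 CPM after MSP (log2 fold change 3.69, SE 0.08, edgeR adjusted p = 1.96e-25), while the MSP and vehicle ranges (4.80 to 6.63 CPM) overlapped. DUSP2, a nuclear phosphatase, was 27.5, 28.4 and 26.6 CPM against 2.07, 1.72 and 1.77 (3.88). DUSP5 stood at 1961, 1935 and 1853 CPM against 322, 346 and 336 (2.52) and DUSP6, which acts on ERK in the cytoplasm, at 689, 712 and 709 CPM against 267, 286 and 250 (1.39). The lower member was DUSP10, a phosphatase of JNK and p38 (-0.31, SE 0.09, edgeR adjusted p = 0.0147).

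Other feedback inhibitors split, with 6 of 16 higher and 2 lower after HGF (6 and 4 with library totals). ERRFI1, an inhibitor of the EGF receptor, stood at 950, 904 and 895 CPM against 207, 220 and 198 CPM after MSP (log2 fold change 2.14), SOCS3, an inhibitor of JAK-STAT signalling, at 60.8, 61.4 and 59.1 CPM against 13.3, 11.7 and 13.1 (2.25), and EPHA2, an ephrin receptor, at 1585, 1525 and 1468 CPM against 389, 397 and 422 (1.92). Within the Sprouty family the members moved in opposite directions. SPRY4 was 98.6, 86.5 and 91.6 CPM after HGF and 23.1, 24.4 and 22.7 CPM after MSP (1.98), whereas SPRY1 was 1.56, 1.76 and 1.72 CPM after HGF and 11.9, 12.6 and 12.5 CPM after MSP (-2.87, SE 0.10, edgeR adjusted p = 2.58e-20). SPRY1 had the largest difference among genes named as lower, and its MSP libraries lay just below the vehicle libraries (12.9 to 13.6 CPM; log2 fold change of MSP against vehicle -0.11, edgeR adjusted p = 0.812). PIK3IP1, an inhibitor of PI3K, was also lower (-0.77).

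The KLF, ETS and MYC list gave 12 higher and 1 lower of 20 (12 and 3 with library totals). KLF10 stood at 582, 619 and 618 CPM after HGF against 152, 176 and 149 after MSP (log2 fold change 1.93), MXD1, a partner of MAX, at 156, 166 and 159 CPM against 66.7, 74.8 and 61.8 (1.24), and KLF16 at 96.7, 90.6 and 87.7 CPM against 42.4, 42.2 and 44.0 (1.09). KLF5, an epithelial factor, was the lower member, at 352, 405 and 394 CPM after HGF against 646, 689 and 549 after MSP (-0.71, SE 0.07, edgeR adjusted p = 9.93e-08). ETV4 and ETV5, ETS factors known as later ERK targets, stood at 0.06 and -0.12 and did not pass.

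Secreted growth factors and cytokines were among the higher genes. Of 7 EGF-family ligands 5 were higher after HGF and none lower. HBEGF stood at 543, 578 and 541 CPM against 68.4, 70.9 and 69.6 after MSP (log2 fold change 2.99, SE 0.08, edgeR adjusted p = 1.7e-17), EREG at 268, 285 and 271 CPM against 50.7, 57.7 and 42.8 (2.45) and AREG at 182, 175 and 160 CPM against 48.2, 49.0 and 44.6 (1.86). Among 17 cytokines and chemokines 7 were higher and none lower. LIF, a ligand of the gp130 receptor, stood at 80.1, 82.4 and 75.4 CPM against 10.32, 10.87 and 11.01 (2.88). IL11, another gp130 ligand, was 7.04, 5.35 and 4.84 CPM after HGF and 0.508, 0.657 and 0.775 CPM after MSP, and all vehicle libraries lay within the MSP range. IL1A was 136, 142 and 146 CPM against 43.5, 48.4 and 38.4 (1.71).

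The angiogenic list gave 7 higher of 15 and none lower (7 and 1 with library totals). VEGFA stood at 926, 934 and 918 CPM after HGF against 287, 287 and 283 after MSP (log2 fold change 1.70), PDGFB at 53.3, 52.0 and 51.2 CPM against 15.1, 14.9 and 14.5 (1.81), and F3, the initiator of blood coagulation, at 2507, 2432 and 2404 CPM against 900, 932 and 830 (1.46). Among 16 TGF-beta, BMP and ID genes 9 were higher and 2 lower (8 and 3 with library totals). ID1, an inhibitor of helix-loop-helix factors, was 486, 504 and 479 CPM against 170, 171 and 168 (log2 fold change 1.53), and SKI, a SMAD corepressor, differed by 0.61. Of 19 plasminogen activators, metalloproteinases and inhibitors 9 were higher and none lower (9 and 2 with library totals). The urokinase receptor PLAUR stood at 79.3, 74.0 and 70.4 CPM against 23.7, 22.3 and 22.0 (1.72), SERPINB2 differed by 1.83 and urokinase, PLAU, by 0.86, while MMP1, MMP7, MMP9, MMP10, MMP13 and MMP14 did not pass (-0.15 to 0.30). MMP3 did not pass either, at very low means of 0.0206 CPM after HGF and 0.0649 after MSP (-1.585, SE 1.098).

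SRF and YAP targets and cytoskeletal genes gave 16 higher and 1 lower of 20, with a median log2 fold change of 0.81. CCN1 stood at 1106, 1062 and 1094 CPM after HGF against 239, 253 and 242 after MSP (2.15), AMOTL2, which binds YAP, at 287, 269 and 274 CPM against 126, 126 and 138 (1.09), and the tropomyosin TPM4 at 795, 765 and 765 CPM against 432, 442 and 417 (0.85). The beta-actin gene ACTB, often used as a reference, was 6362, 6144 and 5989 CPM after HGF against 3327, 3348 and 3518 after MSP (0.86). Its groups did not overlap.

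In the list of NF-kB subunits and inhibitors 8 of 15 were higher and 1 lower (7 and 1 with library totals). TNFAIP3, which edits ubiquitin chains and restrains NF-kB, stood at 172, 154 and 157 CPM after HGF against 26.9, 27.1 and 27.5 after MSP (log2 fold change 2.57, SE 0.05, edgeR adjusted p = 1.03e-26), BCL3 at 165, 155 and 147 CPM against 49.1, 46.3 and 54.6 (1.64), and the subunit RELA differed by 0.47. NFKBIZ was the lower member (-0.35). Genes for mRNA decay and antiproliferative factors were called in 11 of 11 cases, 10 higher and 1 lower (9 and 1 with library totals). ZFP36, which binds AU-rich elements and promotes decay of short-lived mRNAs, was 290, 295 and 311 CPM against 83.5, 82.4 and 88.7 (1.81), BTG2 263, 267 and 251 CPM against 62.6, 62.4 and 62.6 (2.06) and ZFP36L1 1126, 1149 and 1080 CPM against 447, 475 and 424 (1.32). The lower member, BTG1, stood at -0.19.

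**Figure D3:**
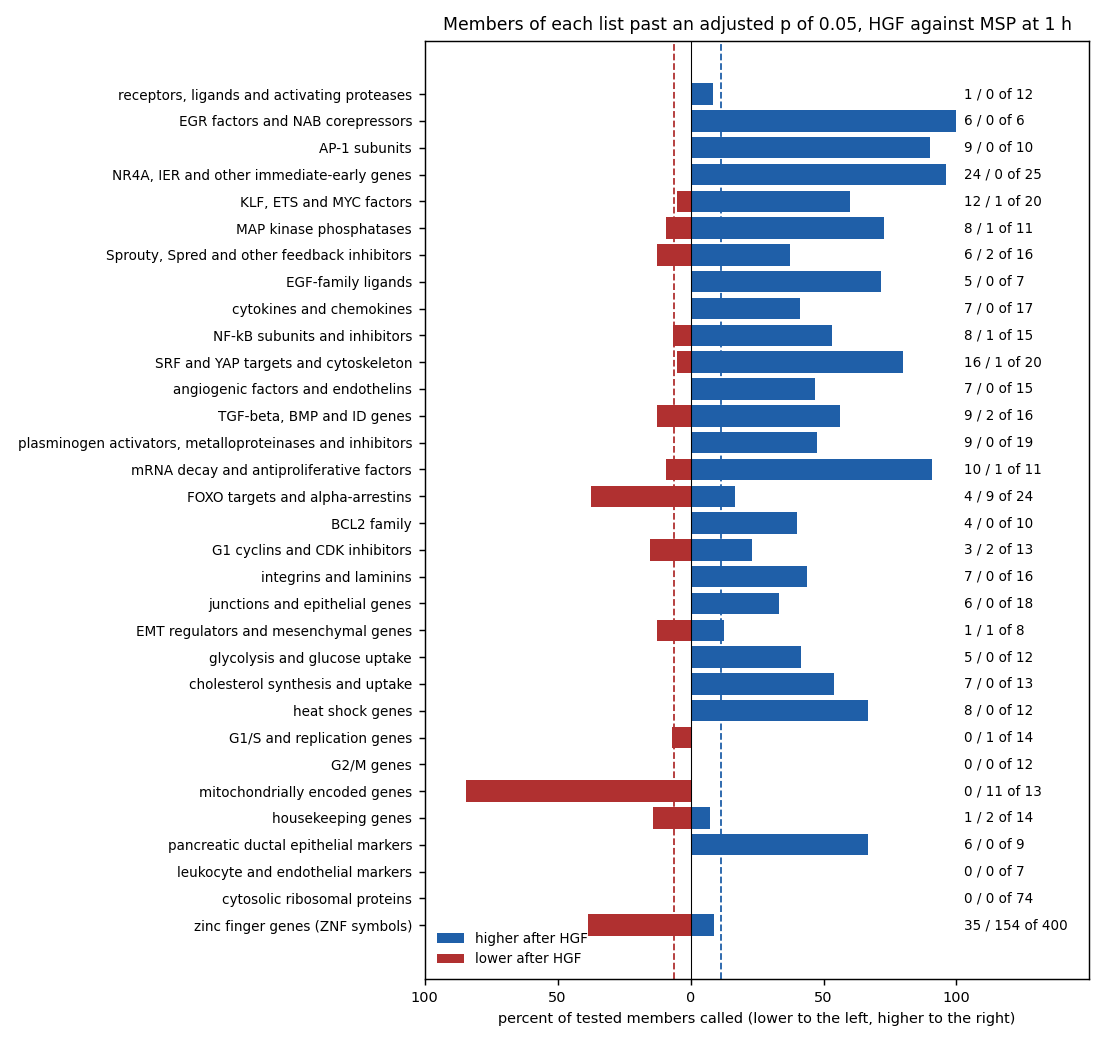
Percent of the tested members of each list that were higher (blue, right) or lower (red, left) after HGF than after MSP at 1 h past an adjusted p of 0.05, with the counts higher / lower of tested at the right and dashed lines at the shares over all genes (11.4% and 6.36%). Lists with at least 6 tested members are drawn. Immediate-early lists reach 90% to 100%, while ZNF genes, FOXO targets and mitochondrially encoded genes extend to the left.

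FOXO targets and alpha-arrestins leaned the other way, with 9 of 24 lower after HGF and 4 higher (11 and 2 with library totals), against 6.36% and 11.4% of all genes. DEPP1, a FOXO target linked to autophagy, stood at 0.923, 1.05 and 1.43 CPM after HGF, 6.80, 6.09 and 6.83 CPM after MSP and 10.5, 9.19 and 10.2 CPM in vehicle. The 3 groups did not overlap (HGF against MSP: log2 fold change -2.50, SE 0.14, edgeR adjusted p = 3.31e-15). BCL6, a transcriptional repressor, was 6.81, 7.32 and 7.25 CPM against 18.6, 16.1 and 16.5 CPM after MSP (-1.26), and CITED2, a coregulator of CBP and p300, 30.8, 34.5 and 32.7 CPM against 57.5, 58.0 and 50.2 (-0.76). FBXO32, a ubiquitin ligase, stood at -0.75, and the pro-apoptotic genes BMF and BCL2L11 at -0.50 and -0.40. BBC3, another pro-apoptotic gene of the list, was higher (0.67), as were IRS2 (0.58) and ARRDC3 (0.26, and with library totals 0.17, edgeR adjusted p = 0.0901). For ARRDC3 the HGF libraries (33.0 to 36.6 CPM) overlapped vehicle (33.4 to 37.5 CPM), and the MSP libraries were lower (24.8 to 32.1 CPM; MSP against vehicle -0.30, edgeR adjusted p = 0.0456).

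Among cell cycle genes the 2 CDK inhibitors with the largest differences went opposite ways. CDKN1A, the p21 inhibitor of cyclin-dependent kinases, stood at 525, 492 and 450 CPM after HGF against 139, 134 and 139 after MSP (log2 fold change 1.83, SE 0.05, edgeR adjusted p = 1.15e-23). CDKN1B, the related p27 inhibitor, differed in the opposite direction, with 21.8, 26.6 and 28.8 CPM against 58.5, 62.4 and 47.6 (-1.12, SE 0.09, edgeR adjusted p = 2.86e-09). In the list of G1 cyclins and CDK inhibitors 3 of 13 were higher and 2 lower, against 11.4% and 6.36% of all genes (2 and 2 with library totals, where CDK2, at 0.21, was lost with 0.11, edgeR adjusted p = 0.0589). Of 10 BCL2-family genes 4 were higher (3 with library totals): BIK (0.84), PMAIP1 (0.62), BCL2L1 (0.47) and BAK1 (0.18, and with library totals 0.09, edgeR adjusted p = 0.251), of which BCL2L1 is anti-apoptotic and the others pro-apoptotic. This count leaves out members placed in other lists. The anti-apoptotic gene MCL1, counted with the immediate-early genes, was higher by 1.18 (means of 1342 and 590.9 CPM). BMF, BCL2L11 and BBC3 were counted with the FOXO targets. Of 14 G1/S and replication genes 1 was lower (7.14%, against 6.36% of all genes), the licensing factor CDT1 (-0.49), and 7 were with library totals. None of 12 G2/M genes passed with TMM factors (edgeR, 0 at an adjusted p of 0.05, 1 at an unadjusted p under 0.05 and 0 by DESeq2), and 3 were lower with library totals.

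Of 400 tested genes with ZNF symbols, mostly DNA-binding proteins with tandem C2H2 fingers, 154 (38.5%) were lower after HGF and 35 (8.75%) higher, against 6.36% and 11.4% of all genes (200 and 25 with library totals). ZNF symbols were 14.4% of all lower genes and 2.38% of all genes tested, or 18.5% and 3.06% among protein-coding genes. ZNF436 stood at 24.7, 28.3 and 24.2 CPM after HGF and 65.1, 65.6 and 61.5 CPM after MSP (log2 fold change -1.32, SE 0.06, edgeR adjusted p = 1.09e-17), and ZNF398 at 28.7, 25.6 and 28.1 CPM against 54.4, 55.6 and 55.1 (-1.001). ZNF792 was 1.18, 1.38 and 1.09 CPM against 4.95, 4.20 and 5.06 (-1.98), and ZNF555, ZNF230 and ZNF572 differed by -1.77, -1.46 and -1.44. The related gene ZKSCAN4 was 1.18, 0.987 and 1.02 CPM against 4.83, 4.20 and 4.48 (-2.09). ZNF561 was an exception, at 93.1, 92.3 and 93.4 CPM after HGF against 49.96, 49.64 and 45.92 (0.94). The MSP libraries lay below every vehicle library for ZNF792 and ZNF436, by differences that did not pass (MSP against vehicle -0.27 and -0.15, edgeR adjusted p = 0.485 and 0.362).

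**Figure D4:**
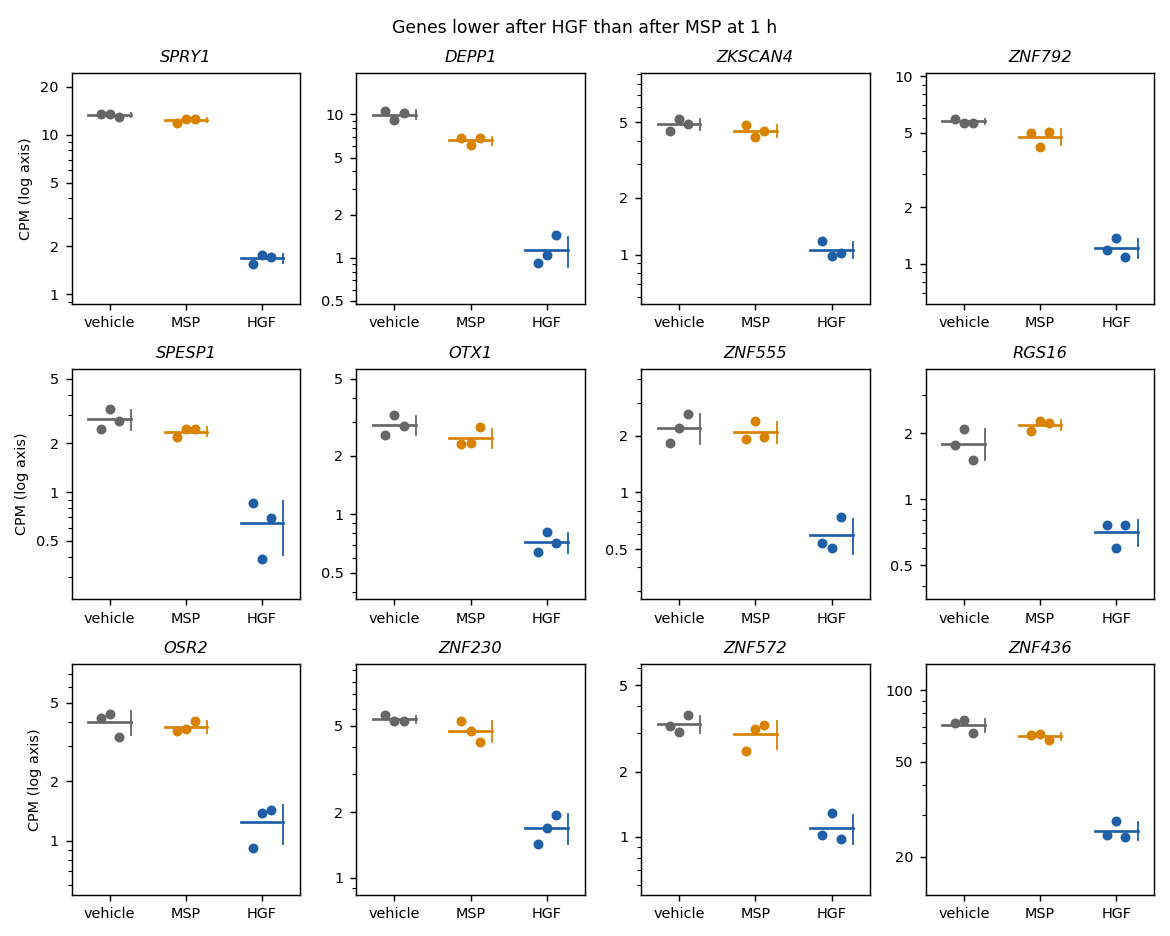
CPM on log axes of 12 genes in each library at 1 h (points) for vehicle, MSP and HGF, with a line at the mean and a bar for the SD (n = 3). Every HGF library lies below every MSP library in all 12 panels because the genes were chosen by that rule. All MSP libraries lie below all vehicle libraries for SPRY1, DEPP1, ZNF792, SPESP1 and ZNF436.

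The other genes among the 15 largest falls were of mixed kinds. The homeobox gene OTX1 stood at 0.637, 0.807 and 0.717 CPM after HGF against 2.31, 2.33 and 2.81 after MSP (log2 fold change -1.77), OSR2, an odd-skipped factor, at 0.923, 1.38 and 1.43 CPM against 3.58, 3.69 and 4.04 (-1.57), and RGS16, a regulator of G-protein signalling, at 0.764, 0.598 and 0.760 CPM against 2.05, 2.27 and 2.23 (-1.61). SPESP1 differed by -1.86, BRF2, a subunit of a transcription factor of RNA polymerase III, by -1.31, the microRNA host gene MIR181A2HG by -1.56 and the divergent transcript ATP6V0D1-DT by -1.32. The next gene after these 15 largest falls was BCL6 at -1.26. Fewer cells and less RNA per cell cannot be told apart in such bulk samples.

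Median log2 fold changes of the epithelial and metabolic lists were small (-0.07 to 0.22), and most of their counts depended on scaling. Single members such as SOX9 and SNAI2 differed more. Ductal markers were higher for 6 of 9 genes and lower for none (4 and 1 with library totals), led by SOX9, a ductal transcription factor, at 27.99, 25.89 and 25.26 CPM after HGF against 9.56, 11.02 and 9.83 after MSP (log2 fold change 1.38, SE 0.08, edgeR adjusted p = 1.21e-14), KRT18 (0.54) and KRT17 (0.49). Integrins and laminins gave 7 higher of 16 (3 higher and 2 lower with library totals), with the laminin chains LAMA3 at 0.36 and LAMB3 at 0.28 (0.19 with library totals). Junction genes gave 6 of 18, and 3 higher and 2 lower with library totals, where their median turned from 0.08 to -0.02. PKP2, a desmosomal plaque protein, stood at 0.49, CLDN4, a tight junction protein, at 0.42 and PKP1 at 0.18, a call lost with library totals (0.09, edgeR adjusted p = 0.0663). In the mesenchymal list SNAI2, a repressor of epithelial genes, was 281, 292 and 281 CPM against 133, 150 and 128 (1.05) and ZNF703 58.2 ± 2.23 against 87.3 ± 2.02 CPM (SD, n = 3; -0.59), and the other 6 did not pass. That made 12.5% of this list higher and 12.5% lower, against 11.4% and 6.36% of all genes.

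Cholesterol genes were higher for 7 of 13 and lower for none (6 and 1 with library totals), with INSIG1, which retains the sterol sensor in the endoplasmic reticulum, at a log2 fold change of 0.74 and IDI1, an isomerase of the pathway, at 0.54. Glycolysis genes gave 5 of 12, and 4 higher and 3 lower with library totals, where the median turned from 0.07 to -0.02. The glycolytic regulator PFKFB3 stood at 0.86, HK2 at 0.63 and the glucose transporter SLC2A1 at 0.44. Heat shock genes gave 8 of 12 (3 with library totals), DNAJB1 at 0.96, HSPA8 at 0.48 and DNAJA1 at 0.46.

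Mitochondrially encoded transcripts were lower for 11 of 13 genes by 0.10 to 0.19 on the log2 scale. MT-CYB, the cytochrome b of complex III, stood at 4981, 4865 and 5199 CPM after HGF against 5346, 5832 and 5549 after MSP (log2 fold change -0.15, edgeR adjusted p = 0.0029), MT-ND1 at -0.14 and MT-ND4 at -0.16, a call lost without MSP replicate 2 (-0.11, edgeR adjusted p = 0.0543). Their share of all counts was 7.79% to 8.16% after HGF, 9.02% to 9.36% after MSP and 8.93% to 9.39% in vehicle, and its part in the other differences was not tested. Among 14 housekeeping genes YWHAZ was higher (0.22, and 0.12 with library totals) and 2 were lower, or 1 and 6 with library totals. With TMM factors that made 7.14% higher and 14.3% lower, against 11.4% and 6.36% of all genes. Of 74 cytosolic ribosomal protein genes none passed with edgeR and TMM factors (0 at an unadjusted p under 0.05 and 0 by DESeq2), and 9 were lower with library totals. Their log2 fold changes ran from -0.08 to 0.13.

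The position of each ligand against vehicle differed between genes. The 2 comparisons with vehicle share the 3 vehicle libraries, so their values are given side by side only. HGF against vehicle had 13.8% of genes higher and 7.16% lower past the test, and MSP against vehicle 0.78% and 0.0536%. With library totals the HGF calls against vehicle turned from 2317 higher and 1202 lower to 1523 and 3590, and the MSP calls from 131 and 9 to 122 and 11. EGR3 stood at 6.02 after HGF and 1.59 after MSP on the log2 scale, RASD1 at 4.88 and 1.40, HBEGF at 4.08 and 1.09, DUSP5 at 3.23 and 0.72, DUSP6 at 2.02 and 0.62, and JUNB at 2.68 and 0.58. For another set of genes with large HGF values the MSP value did not pass: DUSP1 stood at 3.85 and 0.17 (MSP: edgeR adjusted p = 0.758), AKAP12 at 3.98 and 0.37 (0.591), TNFAIP3 at 2.71 and 0.14 (0.42), IL11 at 3.21 and 0.06 (0.977) and SOX9 at 1.39 and 0.01 (0.992). The direct comparison above tests the difference between ligands for each of these genes. Whether the gap between the ligands was itself larger in one gene than in another was not tested.

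**Figure D5:**
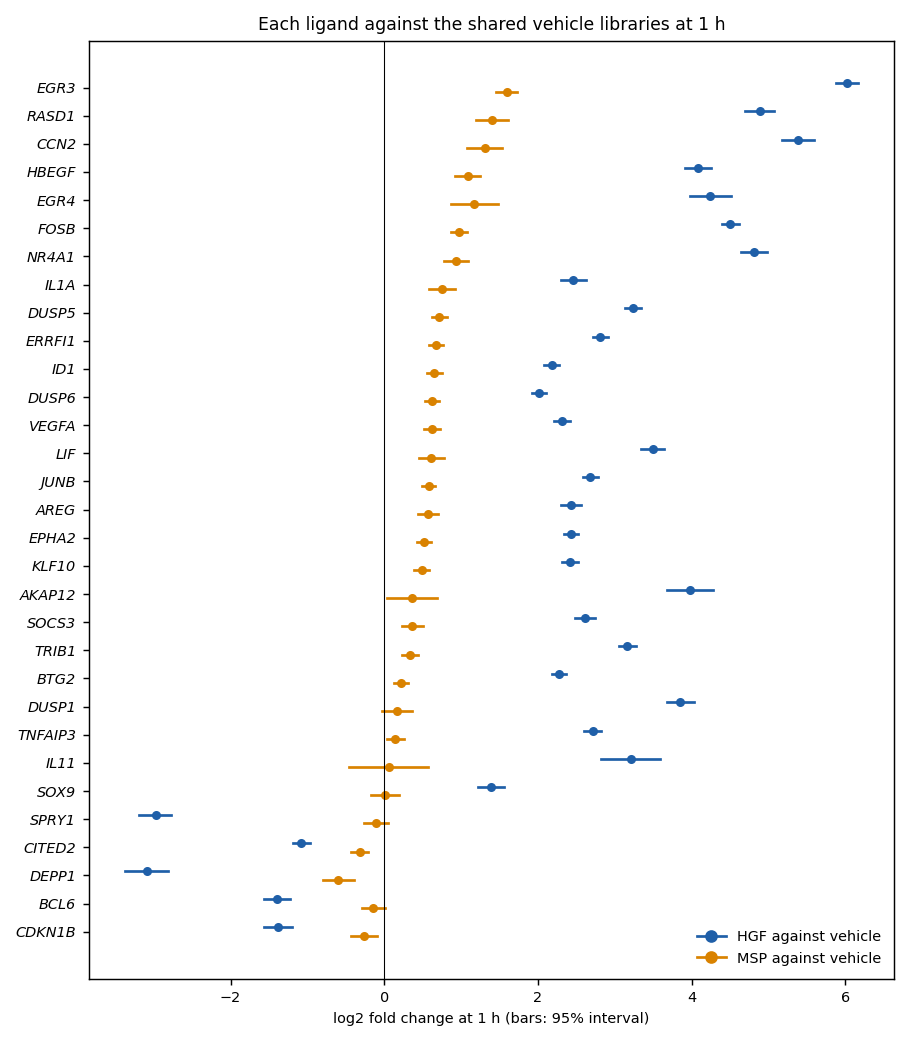
Log2 fold change of HGF (blue) and of MSP (orange) against the same 3 vehicle libraries at 1 h, with 95% intervals, for 31 genes chosen after their values were seen. MSP values run from 1.59 for EGR3 down to -0.60 for DEPP1, each nearer to 0 than the HGF value of the same gene.

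Whether any gene rose with MSP and was lower after HGF than after MSP depended on the setting. With all 18 libraries, TMM factors and the low-count filter no gene was higher after MSP than in vehicle and also lower after HGF than after MSP (0 by edgeR, 74 at unadjusted p under 0.05 in both tests, 0 by DESeq2). The count was 3 with library totals, 3 with no low-count filter, 4 without MSP replicate 2 and 1 without MSP replicate 3. Genes in the mirror order, lower after MSP than in vehicle and higher after HGF than after MSP, were not counted. ARRDC3, described above, had that order past both tests with TMM factors. No gene passed against vehicle in opposite directions for the 2 ligands (0 by edgeR, 17 at unadjusted p under 0.05, 1 by DESeq2). With edgeR 7 genes, and with DESeq2 11, passed for MSP against vehicle and not for HGF against MSP. MICALL1, an endosomal adaptor, stood at 237, 223 and 253 CPM after MSP, 263, 218 and 235 CPM after HGF and 199, 202 and 202 CPM in vehicle, and its difference between ligands had an interval of -0.11 to 0.12. The interval was -0.36 to 0.06 for GNL3L and -0.22 to 0.01 for ZBTB45, which passed with library totals (edgeR adjusted p = 0.0098). NTAQ1, an N-terminal glutamine amidohydrolase, had 16.1, 14.0 and 15.8 CPM after HGF against 17.79, 17.47 and 18.04 after MSP (log2 fold change -0.21, interval -0.38 to -0.05, edgeR adjusted p = 0.0724), and it passed without a low-count filter (adjusted p = 0.0335) and with library totals (0.0066). The others were the antisense transcripts ENSG00000230177 and ENSG00000265496 and the pseudogene PTENP1, all below 1.5 CPM. Of the 13815 genes not called between the ligands 8861 had a 95% interval within 0.5 log2 units of 0, so a larger difference was still possible for the rest.

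Genes that differed most were short and had few exons. Among protein-coding genes the median genomic span was 10778 bases and the median exon number of the longest transcript 4 for the 210 genes at least 2-fold higher after HGF, and 13117 bases and 4 exons for the 66 at least 2-fold lower, against 34180 bases and 8 exons for all 13053 tested (GENCODE 29 gene models). Genes with up to 2 exons were 27.1% and 33.3% of these groups and 10.4% of all. The median level of the 2-fold lower protein-coding genes was 1.37 CPM, against 35.0 CPM for the 2-fold higher and 24.3 CPM for all, so the falls rest on fewer counts. Antisense transcripts made up 28.4% of all 141 genes at least 2-fold lower and 7.17% of all genes tested, and they cannot be told apart from their partners without the strand setting.

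The levels of the same genes at 4 h are given as a description. EGR2 stood at 1.33 ± 0.325 CPM after HGF and 0.946 ± 0.124 after MSP at 4 h (SD, n = 3), and FOSB at 48.4 ± 3.81 and 18.2 ± 0.686 CPM. AKAP12 stood at 1077 ± 87.4 CPM after HGF and 23.1 ± 5.21 after MSP at 4 h, RASD1 at 36.6 ± 2.96 and 3.07 ± 0.563 CPM, and DEPP1 at 1.58 ± 0.159 and 15.7 ± 1.54 CPM. BTG2, 4.16-fold higher after HGF at 1 h, stood at 29.2 ± 0.784 CPM after HGF and 60.4 ± 2.60 after MSP at 4 h. Differences between the times were not tested here.

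Of the 114 genes chosen by the naming rule 28 share bases with a tested gene of the other strand in GENCODE 29. No source used here states whether counting was by strand, and reads of such pairs cannot be told apart. Among those with large values here they are EGR3, FOSB, TAGLN, JUNB, DUSP6, ERRFI1, EPHA2, TNFAIP3, VEGFA, DEPP1, SPESP1, MIR181A2HG, ZNF436, ZNF561, SOX9 and BRF2, and the others include CBL, MST1, TPM4, PLAU, DNAJB1, HK2, SLC2A1, KRT18, BCL2L1 and CDK2. MXD1, AMOTL2, SERPINB2 and MT-ND4 overlap a gene on the same strand.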

How the data were processed

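The KAPA mRNA HyperPrep kit was used for the libraries, per the labels' protocols, and each of the 18 was deposited as a column of raw counts per gene, 58395 Ensembl identifiers in all. The authors made the counts with STAR, Subread and featureCounts, per the submitters' processing notes. Build, annotation and strand setting were not given in the sources used here. Symbols came from a table of gene names and GENCODE 29, which gave 42026 identifiers a symbol.

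Genes were kept with edgeR's filterByExpr (minimum count 10, minimum total 15), which left 16794 and removed at most 0.057% of a library's counts. All 18 libraries were fitted together with TMM factors and edgeR 4.0.16's robust quasi-likelihood test (R 4.3.3, limma 3.58.1), with Benjamini-Hochberg adjustment over all genes and a threshold of 0.05. The SE is the log2 fold change over the root of its F statistic, and intervals are 95%. The fit, tested on simulated data with 200 changed genes, recovered 58% of 1.25-fold, 96% of 1.5-fold and 100% of 2-fold changes in HGF against MSP, with 3.8% of calls false. The changed genes had at least 1 CPM, were balanced between up and down, and their spread followed the fitted trend. All groups were simulated with the same spread, whereas the real MSP libraries at 1 h differed among themselves more than the HGF libraries. These rates therefore do not cover genes of lower level, unequal spread between groups, more changed genes than 200 or the dependence on scaling.

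Named genes were the 15 largest rises and 15 largest falls among called genes whose HGF libraries all lay beyond the MSP libraries, with a symbol and a mean of at least 1 CPM, up to 3 called members a list, the receptors and the genes that MSP changed without a difference from HGF. Some genes that the rule names are not reported here. Genes outside that rule were named after their values were seen. The members and the 34 gene lists were chosen with earlier results of these data known, so list counts are descriptions. Alternatives were DESeq2 1.42.0, its size factors, library totals, no filter, the 6 libraries alone, a replicate block, no robust estimation, and each library left out.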

Additional observations from a re-analysis of the deposited data

How the results depend on the processing

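The number of genes called between HGF and MSP at 1 h was 2979 and stayed within 1.5 times of that under every alternative run: 2977 with DESeq2, 2959 with its size factors, 4408 with library totals, 2956 with no low-count filter, 2318 from the 6 libraries alone and 2979 without robust estimation. Leaving out each library in turn gave 2455 to 3103. HGF against vehicle gave 3519 genes (65.8% of them higher), 5113 with library totals (29.8% higher), and 2938 to 3069 with a library left out. MSP against vehicle gave 140 genes, 81 when only the 6 libraries compared were fitted, and 94 to 183 with a library left out. Its 9 lower calls became 37 without MSP replicate 2, 5 without MSP replicate 3 and, with vehicle replicates 1, 2 or 3 left out, 2, 5 and 6, and the cause was not tested.

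The labels number the libraries 1 to 3 in each group. Deviations from the group means correlated at 0.0429, 0.246 and -0.173 between HGF and MSP libraries of the same number, and the HGF and MSP libraries did not all correlate best with their own number. Between vehicle and HGF the same-number values were 0.0674, 0.154 and 0.136, and between vehicle and MSP 0.21, 0.0781 and 0.2, in each case the best match of the library. Since not every value was above 0.1, the numbers were not taken as pairs. With the replicate number as a block 3255 genes passed between HGF and MSP, 3793 for HGF and 156 for MSP against vehicle.

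The 105 named genes called between HGF and MSP were chosen for large or clear differences in these same libraries, so a change of direction was unlikely from the start. None of them changed direction under the alternatives run. Of the 9 not called, 4 did in at least 1: with library totals MET stood at -0.03, MST1R at -0.01 and MICALL1 at -0.09, and MST1 at 0.32 without HGF replicate 3. Calls were lost for CDK2, PKP1, ARRDC3 and BAK1 with library totals and for MT-ND4 without MSP replicate 2. Calls were gained for NTAQ1 with library totals or no filter, for ZBTB45 with library totals, for ENSG00000230177 with library totals (-0.81) or without MSP replicate 3 (-0.94), and for ENSG00000265496 without MSP replicate 3 (0.83).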
